A study of Fragaria vesca with 9 samples.

Results

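FvH4_3g20030 is the most abundant metallothionein gene in the fruits of woodland strawberry, Fragaria vesca, examined here. It was followed by its identifier as 1 of 34777 listed genes in all 9 RNA sequencing libraries, and it was chosen with its level in each group already known. Its differences between groups are therefore described with their errors and carry no test. The libraries were made from polyadenylated RNA of fruits at 26 days after anthesis and formed 3 groups of 3. The first group was wild type (WT), and the others were the mutants Fvmate51-1 and Fvmate51-2, both of FvMATE51, whose product the series title places in the vacuolar membrane. Transporters of the MATE family move organic compounds across membranes, in plants often into the vacuole. The nature of each mutation, and whether each mutant was a single plant line or clone, are not given in the sources used here. The labels do not say whether replicates came from separate plants, so every p-value below measures only the spread between these libraries, which may be technical.

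Metallothioneins are very small proteins rich in cysteine, whose sulfur atoms hold copper, zinc and other metal ions in clusters. Plants carry several types. One type is abundant in roots, one in leaves, one in ripening fleshy fruits such as banana and kiwifruit, and the EC type in seeds, where it stores zinc. They are known for buffering free copper and zinc, and their cysteines can also react with reactive oxygen species.

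The authors' table names FvH4_3g20030 from its closest Swiss-Prot entry, Metallothionein-like protein 1 of sweet cherry. That entry's code, MT3_PRUAV, carries the number of the plant type known from fruits. The gene lies on the plus strand of chromosome 3 at positions 13176492 to 13177331, with the genome build not stated in the sources used here. This span of 840 bases holds a listed length of 192 bases, or 64 codons if all of it is coding. Of all listed genes, 11 have a length of 192 bases or less, this one included. The values are FPKM, fragments scaled to gene length in kilobases and to library size. A level in FPKM divides by the listed length, so the position of a very short gene among other genes rests on that length, while the comparison of 1 gene between libraries does not. No Pfam domain named for metallothioneins was listed for any gene, and the EC type was named in 0 descriptions. The only other metallothionein row was FvH4_6g13710, named from Metallothionein-like protein type 2 MET1 of garden strawberry.

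The depth of the libraries was between 31587667 and 51649115 fragments in listed genes, with 15054 to 15328 genes at 1 FPKM or more. Replicates differed beyond sampling noise, and 2 libraries stood apart from the others of their group, WT replicate 3 and Fvmate51-1 replicate 2. Pairs with either gave a mean chi-square per gene between 26.7 and 58.2, against 4.45 to 9.47 for the other pairs, so results that rest on them are also given without them. Between the mean of both mutants and WT, the pooled comparison below, 5545 of 15890 tested genes were called (34.9%), 2674 higher (16.8%) and 2871 lower (18.1%), at a limma adjusted p under 0.05. After rescaling each library to the same FPKM sum without the metallothionein rows, the split was 3466 higher and 2133 lower. For Fvmate51-1 alone it was 2618 higher (16.5%) and 3027 lower (19%), and 3648 and 2018 after that rescaling. Of 106 genes named for ripening receptacle functions, 32 averaged 1 FPKM or more in WT, 28 in Fvmate51-1 and 33 in Fvmate51-2. In the same order, 39, 41 and 39 of them were at 0 in all 3 libraries of the group. Their summed values are given with the other tissue markers below.

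FvH4_3g20030 was present at 6557, 6710 and 8240 FPKM in WT replicates 1, 2 and 3. In Fvmate51-1 its level was 10220, 13800 and 9989 FPKM, and in Fvmate51-2 it was 15398, 14848 and 13302 FPKM. Every mutant library was above every WT library. Between the mutants, Fvmate51-1 replicate 2 exceeded the lowest Fvmate51-2 library, so those groups overlapped. A row with every library of both mutants above every WT library was not rare, at 11.9% of the genes tested, and for the single mutants the share was 22.4% for Fvmate51-1 and 25.9% for Fvmate51-2.

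**Figure D1:**
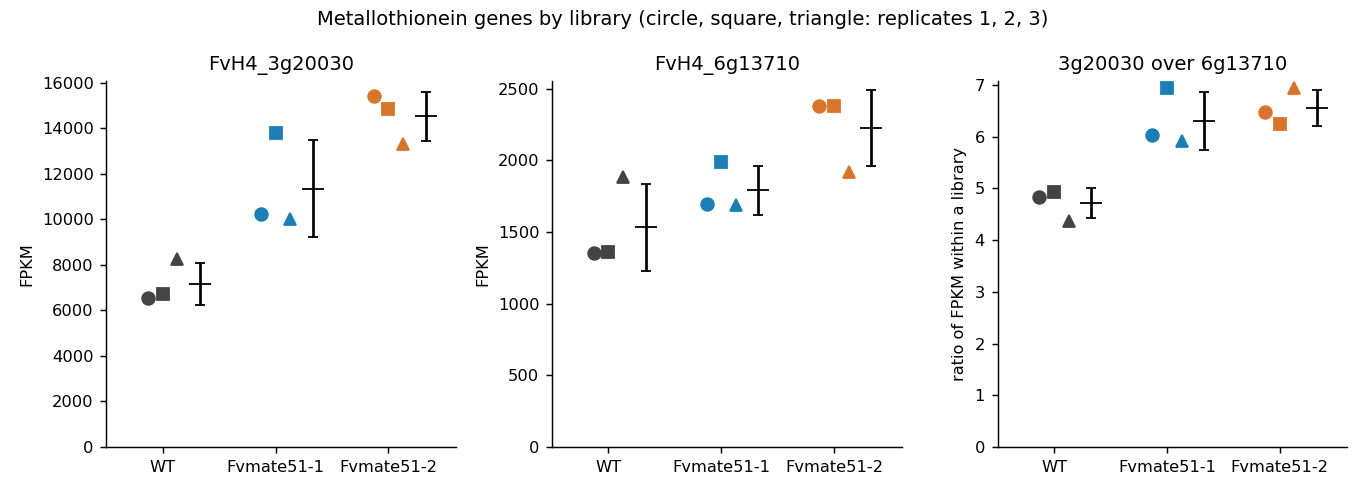
Level of the 2 metallothionein genes in FPKM, and their ratio within each library, in WT, Fvmate51-1 and Fvmate51-2. Circles, squares and triangles are replicates 1, 2 and 3, and the bars give the mean and SD of 3 libraries. For FvH4_3g20030, WT libraries lie between 6557 and 8240 FPKM and mutant libraries between 9989 and 15398 FPKM.

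The group means were 7169 ± 931 FPKM in WT, 11336 ± 2136 in Fvmate51-1 and 14516 ± 1087 in Fvmate51-2 (SD, n = 3 libraries each). The mean was 1.58-fold higher in Fvmate51-1 and 2.02-fold higher in Fvmate51-2 than in WT. On the scale of log2(FPKM + 1) the differences from WT were 0.65 ± 0.16 for Fvmate51-1, 1.02 ± 0.16 for Fvmate51-2 and 0.84 ± 0.14 for both together (SE). The mutants differed from each other by 0.37 ± 0.16 on the same scale. The RNA came from bulk fruit, so a change in the share of cells that hold this RNA cannot be told apart from a change in RNA per cell.

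The coefficient of variation was 12.98% in WT, 18.8% in Fvmate51-1 and 7.49% in Fvmate51-2. The library that stood apart was the highest of its group in both WT and Fvmate51-1. Without them the means were 6634 FPKM in WT and 10105 FPKM in Fvmate51-1, and the log2 differences from WT became 0.61 for Fvmate51-1 and 1.13 for Fvmate51-2. The difference between the mutants became 0.52, and then every Fvmate51-2 library was above every Fvmate51-1 library. With all libraries, 25.1% of the genes tested had Fvmate51-2 entirely above Fvmate51-1. The SD of the log2 values within groups was 0.19, the 12th largest among the 100 most abundant genes, whose median was 0.13.

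Fragment numbers could be read back from the deposited values, since the product of FPKM and length rose in even steps of 1 fragment in each library. FvH4_3g20030 held 51700 to 114443 fragments per library. This was 0.131%, 0.132% and 0.161% of the fragments in listed genes in WT replicates 1, 2 and 3. The share was 0.206%, 0.295% and 0.201% in Fvmate51-1 and 0.300%, 0.285% and 0.257% in Fvmate51-2. The exact 95% binomial interval of the first WT value was 0.130% to 0.132%, which covers counting error only and overlapped that of the second WT library. Of the sum of FPKM over all genes, which allows for length, the gene made up 1.18%, 1.19% and 1.34% in WT, 1.89%, 2.599% and 1.87% in Fvmate51-1 and 2.69%, 2.57% and 2.38% in Fvmate51-2.

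By FPKM the gene ranked 2 in all 9 libraries. Rank 1 was always FvH4_5g18321, a proline-rich protein of the lipid transfer type, whose level was 3.09 to 3.53 times that of FvH4_3g20030 in WT. In Fvmate51-1 that ratio was 1.22 to 2.09, and in Fvmate51-2 it was 1.31 to 1.64. FvH4_5g18321 itself measured 24151 ± 4394, 19623 ± 2463 and 20833 ± 910 FPKM in WT, Fvmate51-1 and Fvmate51-2 (limma adjusted p = 0.199 for both mutants against WT). The order of the first 2 genes was thus the same everywhere, while the gap between them was smaller in every mutant library.

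Below it, WT held a close neighbour in level. FvH4_6g50700, a 2-methylene-furan-3-one reductase of the kind that forms the strawberry aroma compound furaneol, reached 6849 ± 834 FPKM in WT, 5306 ± 193 in Fvmate51-1 and 5271 ± 141 in Fvmate51-2 (limma adjusted p = 0.0148, both against WT). In WT the metallothionein exceeded the gene of rank 3 by a ratio of 1.04 to 1.06 in all 3 libraries. The SDs of the levels in WT are spreads between libraries and do not measure this gap within a library. That ratio was 1.82 to 2.19 in Fvmate51-1 and 2.49 to 2.74 in Fvmate51-2.

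**Figure D2:**
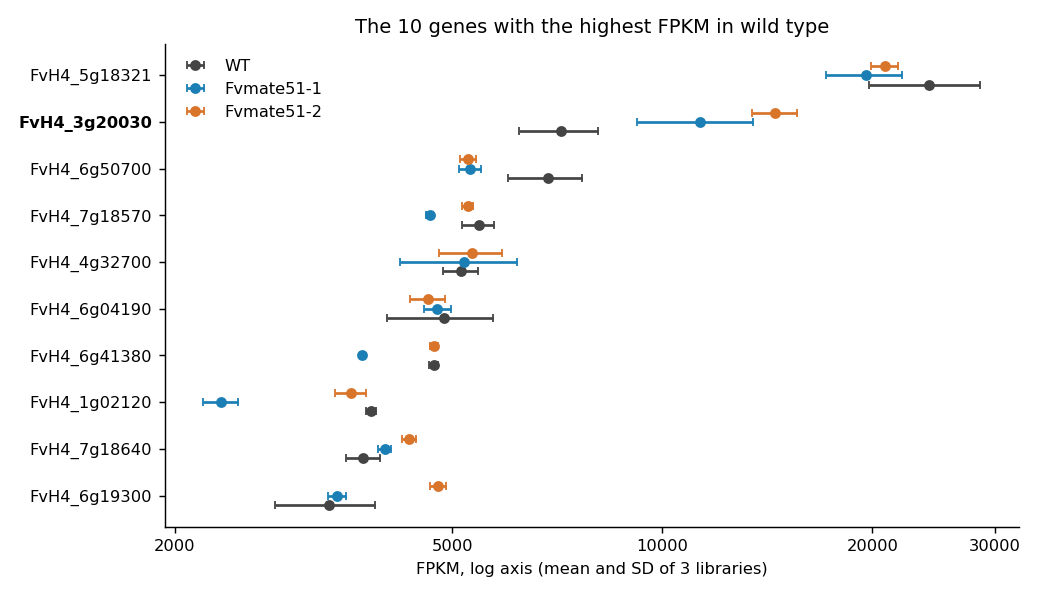
Mean FPKM on a log axis with SD over 3 libraries for the 10 genes with the highest level in WT, by group. FvH4_3g20030 has means of 7169, 11336 and 14516 FPKM in WT, Fvmate51-1 and Fvmate51-2.

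The other genes of that abundance gave smaller differences or lower levels in the mutants. FvH4_4g32700 measured 5141 ± 294, 5204 ± 990 and 5341 ± 561 FPKM in WT, Fvmate51-1 and Fvmate51-2 (limma adjusted p = 0.889, both mutants against WT). FvH4_6g41380, a polygalacturonase of pectin breakdown, averaged 4703, 3707 and 4714 FPKM, and fell in Fvmate51-1 (limma adjusted p = 0.0117). FvH4_1g02120 averaged 3829, 2333 and 3578 FPKM and also fell in Fvmate51-1 (limma adjusted p = 0.000195). FvH4_6g19300, matched to a pinene synthase of monoterpene formation, measured 3329 ± 543, 3416 ± 102 and 4768 ± 122 FPKM and rose in Fvmate51-2 (limma adjusted p = 0.0069). The remaining 3 of these 10 genes, FvH4_7g18570, FvH4_6g04190 for an acyl carrier protein and FvH4_7g18640, averaged between 3726 and 5456 FPKM in every group.

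Across the 50 genes with a mean of at least 1000 FPKM, the difference between both mutants and WT ran from -1.20 to 0.87 on the log2 scale, with a median of -0.05. The value for FvH4_3g20030, 0.84, was exceeded by 1 of them, FvH4_5g06470. This is a germacrene D synthase of sesquiterpene formation, at 1137 FPKM in WT, 1497 in Fvmate51-1 and 2856 in Fvmate51-2. Just below FvH4_3g20030 lay FvH4_2g39441 at 0.83 and FvH4_6g45070 at 0.81. These gaps are smaller than the SE of 0.14 for FvH4_3g20030, so the order of these genes is not resolved. For each mutant alone, 2 of the 50 genes had a larger rise. Between Fvmate51-2 and Fvmate51-1, 17 of the 50 had a larger difference, and the median of the 50 was 0.26.

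**Figure D3:**
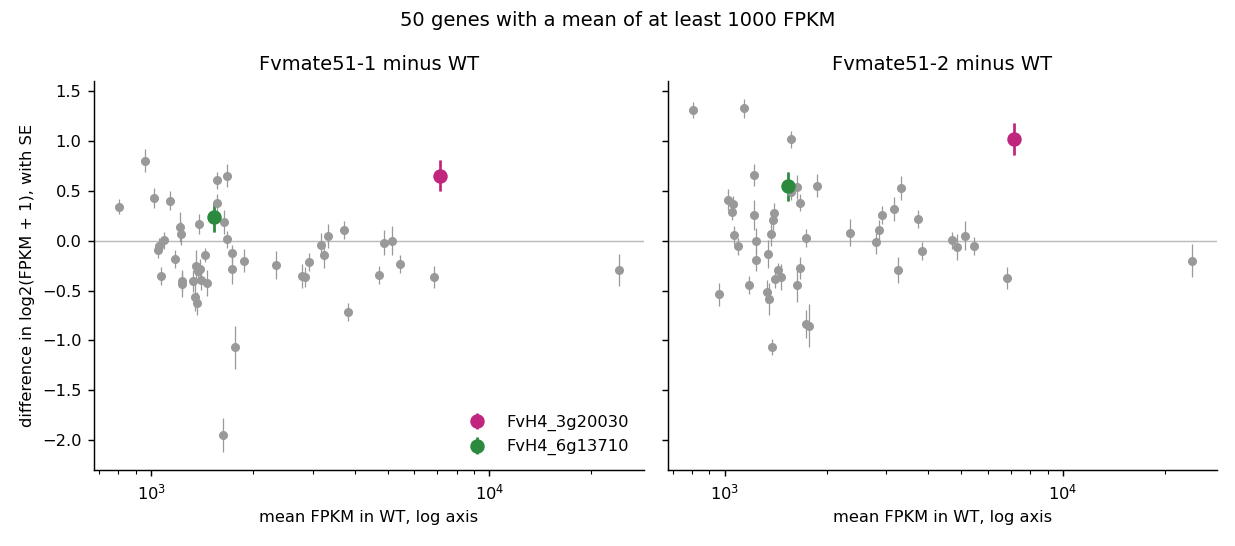
Difference from WT in log2(FPKM + 1), with its SE, against the mean FPKM in WT on a log axis, for the 50 genes with a mean of at least 1000 FPKM, in each mutant. FvH4_3g20030 stands at 0.65 in Fvmate51-1 and 1.02 in Fvmate51-2, and FvH4_6g13710 at 0.24 and 0.55.

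Of 1527 listed genes of at most 300 bases, 348 averaged 1 FPKM or more. Over all 34777 listed genes, 15054 to 15328 reached 1 FPKM in a single library. FvH4_3g20030 was first among the short genes with a mean of 11007 FPKM over all libraries. FvH4_6g13710 was second with 1848 FPKM, and the third, FvH4_2g02651, had 728 FPKM. How far the rank of FvH4_3g20030 rests on its listed length was not tested.

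FvH4_6g13710, the other metallothionein, lies on the minus strand of chromosome 6 at positions 8353349 to 8354035 and has a listed length of 243 bases. Its level was 1355, 1360 and 1882 FPKM in WT, 1696, 1986 and 1686 FPKM in Fvmate51-1, and 2379, 2376 and 1917 FPKM in Fvmate51-2. WT replicate 3 lay within the range of Fvmate51-1, so those groups overlapped, whereas every Fvmate51-2 library was above every WT library. The means were 1532 ± 303, 1789 ± 171 and 2224 ± 266 FPKM, which is 1.17-fold and 1.45-fold the WT level in Fvmate51-1 and Fvmate51-2.

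This gene was not the one chosen for its values, and it was tested in the fit over all 15890 genes. It rose in Fvmate51-2 by 0.55 ± 0.15 on the log2 scale (limma adjusted p = 0.0168, higher in 3 of 3 libraries), where 30.4% of all genes tested were called, 15.3% higher and 15.1% lower. In Fvmate51-1 the difference was 0.24 ± 0.15 (limma adjusted p = 0.227), and between the mutants it was 0.31 ± 0.15 (limma adjusted p = 0.145). For both mutants together it was 0.39 ± 0.13 (limma adjusted p = 0.0346). These calls rested on few libraries. The adjusted p for Fvmate51-2 passed 0.05 without either of the first 2 WT replicates or either of the first 2 Fvmate51-2 replicates, at 0.0548 to 0.0662. For both mutants together it was 0.121 without WT replicate 1, 0.133 without WT replicate 2, and 0.0522 to 0.0733 without replicates 1 or 2 of either mutant. Without WT replicate 3, the Fvmate51-1 difference was 0.39 with an adjusted p of 0.0267 and the difference between the mutants was 0.31 with 0.0408.

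Within a library the 2 metallothioneins can be set against each other with no effect of library scaling. The level of FvH4_3g20030 was 4.84, 4.93 and 4.38 times that of FvH4_6g13710 in WT replicates 1, 2 and 3. The ratio was 6.03, 6.95 and 5.93 in Fvmate51-1 and 6.47, 6.25 and 6.94 in Fvmate51-2. Means were 4.72 ± 0.30, 6.30 ± 0.56 and 6.55 ± 0.35 (SD, n = 3), so all 6 mutant libraries lay above the 3 WT libraries and the mutants overlapped. Like the levels of FvH4_3g20030, these ratios are a description.

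The genes listed on either side of FvH4_3g20030 were nearly silent. FvH4_3g20011, with a zinc knuckle domain, is listed at 0 in every library. FvH4_3g20020, a probable ubiquitin-conjugating enzyme, averaged 0.174, 0.403 and 0.686 FPKM in WT, Fvmate51-1 and Fvmate51-2 and was too low to be tested. On the other side, the unannotated transcript at positions 13181850 to 13183604 averaged 0.320, 1.03 and 0.799 FPKM and rose in the pooled comparison (limma adjusted p = 0.0177). The next one, at 13184908 to 13186618, averaged 0.954, 1.36 and 1.26 FPKM (limma adjusted p = 0.210).

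The wider set of genes for handling metals and reactive oxygen was taken as 7 lists matched by words in the descriptions. Together the lists held 279 genes, of which 134 were tested. In the pooled comparison with WT, 28 of them were called higher and 35 lower, or 47.0% of those tested, beside 34.9% of all genes, with a median log2 difference of -0.00 beside 0.00. Under the rescaling without the metallothionein rows the split was 39 higher and 24 lower. In Fvmate51-1, 29 were higher and 43 lower, 53.7% of those tested beside 35.5% over all genes, and 36 and 32 under that rescaling. In Fvmate51-2, 29 were higher and 19 lower, 35.8% of those tested beside 30.4% over all genes. Between the mutants, 39 were higher in Fvmate51-2 (29.1%) and 23 lower (17.2%), beside 15.4% and 12.2% of all genes. Under that rescaling the lists gave 33 higher and 29 lower there, and the split over all genes turned from 2453 higher and 1937 lower to 1806 higher and 2511 lower. The metal genes therefore moved in both directions, and calls were frequent among all genes as well.

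**Figure D4:**
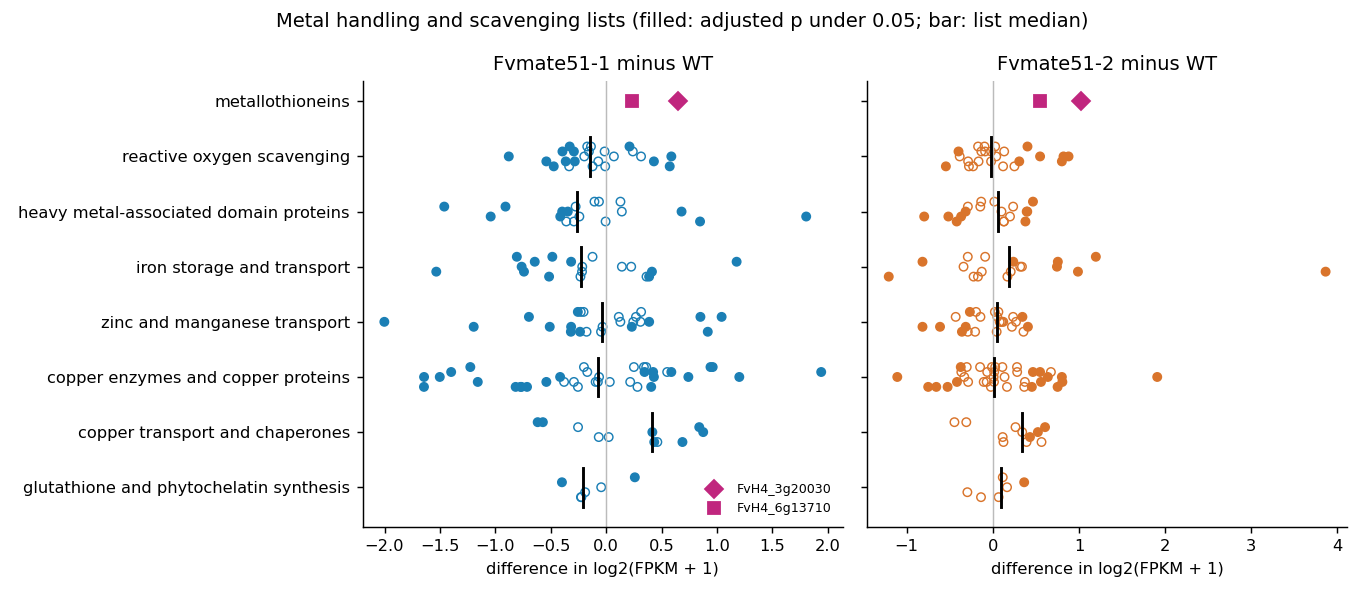
Difference from WT in log2(FPKM + 1) for the tested genes of 7 lists in each mutant, with 1 circle per gene, filled where the limma adjusted p is under 0.05, and a bar at the median of each list. The metallothioneins are drawn on top in a solid colour whatever their p. Copper transport and chaperones have medians of 0.42 in Fvmate51-1 and 0.34 in Fvmate51-2, and the other 6 lists lie between -0.26 and 0.19.

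Of 11 tested genes for copper transport and chaperones, 5 were called higher and 2 lower in the pooled comparison, beside 16.8% and 18.1% of all genes, with a median of 0.28. The rescaling without the metallothionein rows gave 5 and 1. In Fvmate51-1 alone 5 were higher and 2 lower, beside 16.5% and 19% of all genes. In Fvmate51-2 alone 3 were higher and 0 lower, beside 15.3% and 15.1% of all genes. FvH4_5g01090 encodes the chaperone that loads copper into superoxide dismutase. Its level was 2.26, 2.65 and 3.17 FPKM in WT, 6.03, 4.50 and 6.37 in Fvmate51-1 and 4.14, 4.57 and 5.11 in Fvmate51-2, with no overlap between WT and the mutants. It rose by 0.72 ± 0.12 on the log2 scale in the pooled comparison (limma adjusted p = 0.00111). The limma adjusted p of the other genes in these lists is for the pooled comparison too, unless a mutant is named. PAA2, the pump that carries copper into thylakoids (FvH4_2g30930), went from 1.87 ± 0.33 to 2.82 ± 0.27 and 3.11 ± 0.09 FPKM (limma adjusted p = 0.00393). HMA2, a pump for zinc and cadmium caught by the same words (FvH4_4g07520), averaged 1.70, 3.87 and 2.36 FPKM (limma adjusted p = 0.00756, and 0.132 for Fvmate51-2 alone). The other rises in the pooled comparison were FvH4_7g27352 and FvH4_3g23161, both matched to the copper pump HMA4. All 5 stayed under 7 FPKM in every library.

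Both genes that fell in the pooled comparison in this list were more abundant. CCH, a soluble copper chaperone (FvH4_7g05820), measured 274 ± 49.9 FPKM in WT, 185 ± 42.3 in Fvmate51-1 and 220 ± 29.0 in Fvmate51-2 (limma adjusted p = 0.0398, and 0.191 for Fvmate51-2 alone). FvH4_3g19981, the chaperone that delivers copper to cytochrome c oxidase, measured 44.6 ± 6.23, 29.0 ± 6.73 and 32.5 ± 4.26 FPKM (limma adjusted p = 0.0130, and 0.0533 for Fvmate51-2 alone).

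Superoxide dismutases of the copper-zinc kind, which use both metals to remove superoxide, had 3 rows. FvH4_6g04231 on chromosome 6 gave 101, 93.4 and 114 FPKM in WT, 140, 141 and 134 in Fvmate51-1 and 194, 186 and 159 in Fvmate51-2. No group overlapped another. Its log2 difference from WT was 0.43 ± 0.09 in Fvmate51-1 (limma adjusted p = 0.00577) and 0.80 ± 0.09 in Fvmate51-2 (limma adjusted p = 0.000112), and the mutants differed by 0.37 ± 0.09 (limma adjusted p = 0.0135). The chloroplast form FvH4_3g30620 rose from 10.9 ± 1.32 FPKM to 16.9 ± 0.23 and 16.4 ± 0.53 (limma adjusted p = 0.000285). The third, FvH4_1g28280, measured 15.5 ± 3.29, 10.2 ± 0.35 and 12.3 ± 0.44 FPKM and fell in the pooled comparison (limma adjusted p = 0.0121, and 0.0942 for Fvmate51-2 alone). In the scavenging list as a whole, 4 of 24 tested genes were higher and 4 lower in the pooled comparison, or 33.3% called beside 34.9% of all genes, with a median of -0.10. The rescaling without the metallothionein rows gave 7 higher and 2 lower. In Fvmate51-1 alone the counts were 4 and 8, or 16.7% and 33.3%, beside 16.5% and 19% of all genes. After that rescaling they were 5 and 4. In Fvmate51-2 alone they were 6 and 2, or 25% and 8.3%, beside 15.3% and 15.1% of all genes. A glutathione peroxidase that reduces peroxides, FvH4_5g02170, averaged 11.98, 5.90 and 8.69 FPKM and fell in the pooled comparison (limma adjusted p = 0.00783) and in Fvmate51-1 (0.00274), with 0.106 for Fvmate51-2 alone.

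Glutathione and the phytochelatins made from it are the other main thiols that bind metals in plants. The list for their synthesis also held glutathione reductases, which are not enzymes of synthesis. Of its 6 tested genes, 1 was called higher and 0 lower in the pooled comparison. This was 16.7% beside 34.9% of all genes, with a median of -0.05. The gene called was glutamate-cysteine ligase, the first enzyme of glutathione synthesis (FvH4_5g02350), at 43.6 ± 1.29, 52.3 ± 1.59 and 47.3 ± 2.13 FPKM (limma adjusted p = 0.0264). It was called in Fvmate51-1 (limma adjusted p = 0.0117) and not in Fvmate51-2 (0.204). The phytochelatin synthase genes FvH4_2g21060 and FvH4_2g21050 were low and averaged 2.08 to 4.04 FPKM (limma adjusted p = 0.0677 and 0.224). The pooled comparison hid a gene that moved in opposite directions, the cytosolic glutathione reductase FvH4_4g00450. It averaged 58.2 FPKM in WT, 43.9 in Fvmate51-1 (limma adjusted p = 0.0012) and 75.2 in Fvmate51-2 (limma adjusted p = 0.00219).

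Genes for copper enzymes and copper proteins were called in equal numbers each way, 9 higher and 9 lower of 37 tested in the pooled comparison, or 48.6% called beside 34.9% of all genes, with a median of 0.13. Of the 109 listed rows, 48 had a Swiss-Prot name with none of the list's words and were caught by a domain name. Among them were early nodulin-like proteins and a fatty acid desaturase. FvH4_2g16000, a homolog of ascorbate oxidase, fell from 6.44 ± 0.43 to 4.58 ± 0.32 and 2.45 ± 0.32 FPKM (limma adjusted p = 0.000103). Polyphenol oxidase, which browns cut tissue (FvH4_3g04680), measured 2.97 ± 0.28 FPKM in WT and 0.512 ± 0.21 in Fvmate51-1, and 2.08 ± 0.35 in Fvmate51-2, where its adjusted p was 0.0593.

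Among 24 tested zinc and manganese transporters, 3 were higher and 9 lower in the pooled comparison, beside 16.8% and 18.1% of all genes, with a median of 0.04. The split depended on scaling: without the metallothionein rows in the rescaled sum it was 5 and 6. In Fvmate51-1 alone it went from 5 higher and 8 lower to 8 and 4. Before rescaling these were 20.8% and 33.3%, beside 16.5% and 19% of all genes. The lower group held FvH4_7g21220, the manganese carrier metal tolerance protein 11, at 77.6 ± 2.50, 54.3 ± 4.82 and 50.3 ± 1.32 FPKM (limma adjusted p = 0.000114). It also held FvH4_3g29440, zinc transporter 11, which averaged 13.6, 5.39 and 10.8 FPKM (limma adjusted p = 0.000158). Metal tolerance protein 10, FvH4_3g14550, rose from 13.5 ± 0.93 to 28.9 ± 2.02 and 17.4 ± 0.98 FPKM (limma adjusted p = 5.09e-05).

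Of 18 tested iron genes, 5 were higher and 6 lower in the pooled comparison, or 61.1% called beside 34.9% of all genes, with a median of -0.14, and rescaling to the same FPKM sum gave 7 and 3. In Fvmate51-1 alone 3 were higher and 8 lower, or 16.7% and 44.4%, beside 16.5% and 19% of all genes. In Fvmate51-2 alone 6 were higher and 2 lower, or 33.3% and 11.1%, beside 15.3% and 15.1%. Without the 2 libraries that stood apart, 5 were higher and 5 lower in Fvmate51-1, and 7 higher and 4 lower in Fvmate51-2. The difference between the splits of the mutants was not tested. The ferric reductase FRO2, which reduces iron before uptake (FvH4_7g14960), rose from 0.580 to 2.57 and 1.67 FPKM (limma adjusted p = 3.18e-05), and the chloroplast iron transport protein FvH4_2g31850 fell from 35.3 to 28.2 and 19.6 FPKM (limma adjusted p = 0.000402). Ferritin, the iron store of plastids (FvH4_6g10770), moved in opposite directions in the mutants, at 12.7 ± 0.77 FPKM in WT, 3.78 ± 0.77 in Fvmate51-1 and 199 ± 8.29 in Fvmate51-2. Proteins with a heavy metal-associated domain, which bind single metal ions, were higher in 3 and lower in 7 of 18 cases in the pooled comparison. This was 55.6% called beside 34.9% of all genes, with a median of -0.07. Under the rescaling without the metallothionein rows 4 were higher and 5 lower. Examples are FvH4_3g31060, which rose from 18.7 to 34.5 and 24.7 FPKM (limma adjusted p = 0.000127), and FvH4_7g30310, which fell from 93.9 to 45.2 and 53.6 FPKM (limma adjusted p = 0.00016).

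Likeness to FvH4_3g20030 was measured over the 9 libraries as the root-mean-square difference of log2(FPKM + 1) after each gene was centred on its own mean, for 6429 described genes with a mean of at least 10 FPKM. The median over all of them was 0.485. The 6 closest genes lay between 0.129 and 0.158 and were chosen by these values, so they have no test. The closest was FvH4_6g45070, matched to xanthohumol 4-O-methyltransferase of hop prenylflavonoid synthesis, at 1570 ± 122, 2384 ± 22.2 and 3175 ± 92.6 FPKM in WT, Fvmate51-1 and Fvmate51-2. FvH4_5g26660, with a domain of unknown function, averaged 174, 232 and 298 FPKM. The ubiquitin ligase FvH4_6g26170 averaged 39.9, 58.0 and 72.6 FPKM, and the cytochrome P450 gene FvH4_5g07560 averaged 232, 366 and 429 FPKM. FvH4_6g14600, of unknown function, averaged 11.7, 19.96 and 29.5 FPKM. FvH4_6g36640, a vacuolar-processing enzyme, which is a protease that matures vacuolar proteins, averaged 16.0, 24.8 and 37.6 FPKM. In all 6 the order of the group means was WT, Fvmate51-1, Fvmate51-2, which their choice by likeness to FvH4_3g20030 largely fixed. The superoxide dismutase FvH4_6g04231 came 7 in this order at 0.159 and FvH4_6g13710 came 35 at 0.227.

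**Figure D5:**
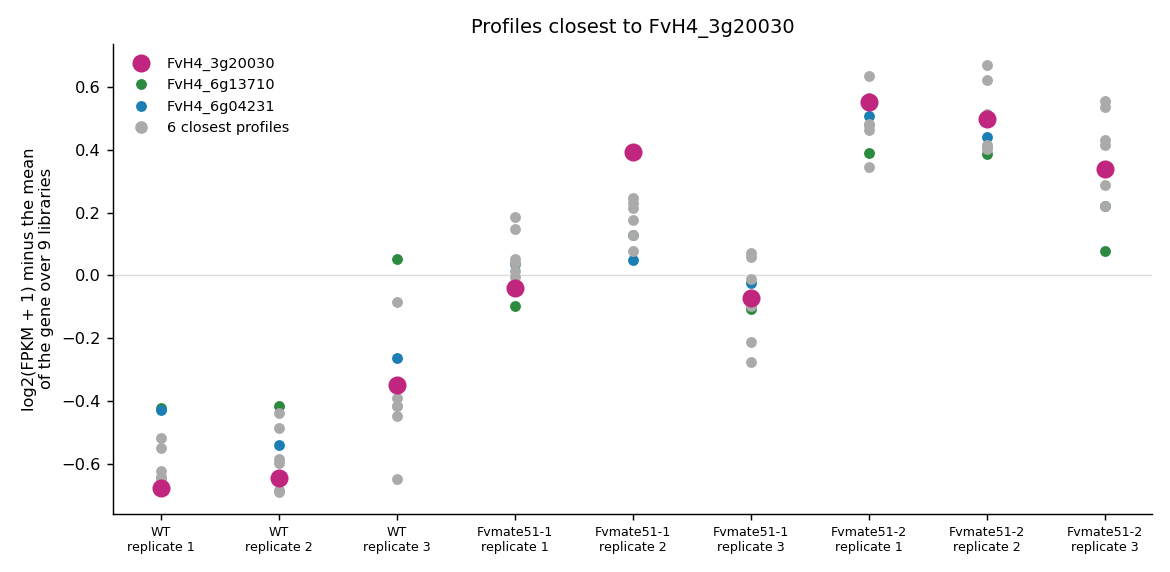
log2(FPKM + 1) of each gene minus its mean over the 9 libraries, by library, for FvH4_3g20030, FvH4_6g13710, the superoxide dismutase FvH4_6g04231 and the 6 genes of the closest profile. All 3 WT values of FvH4_3g20030 lie below 0 and all 3 Fvmate51-2 values above 0, and in Fvmate51-1 replicate 2 it lies above the other genes drawn.

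The tissue makeup of the samples was read from marker genes. The 106 ripening receptacle genes named by their Swiss-Prot match summed to 13592 to 15558 FPKM in WT, 10498 to 10894 in Fvmate51-1 and 12368 to 12803 in Fvmate51-2, so every mutant library was below every WT library. Of 37 tested genes in that list, matched by name or domain, 1 was called higher and 18 lower in the pooled comparison. These were 2.7% and 48.6%, beside 16.8% and 18.1% of all genes. In Fvmate51-1 the counts were 1 higher and 22 lower, or 2.7% and 59.5%, beside 16.5% and 19% of all genes. In Fvmate51-2 the counts were 7 higher and 8 lower, or 18.9% and 21.6%, beside 15.3% and 15.1% of all genes. Of 27 named achene genes, which mark the seed-bearing dry fruits on the berry, the summed level was 360 to 456 FPKM in WT, 351 to 455 in Fvmate51-1 and 331 to 393 in Fvmate51-2, and the groups overlapped. The longer achene list of 105 rows matched by name or domain did not overlap WT, at 3361 to 3775 FPKM in WT, 2440 to 3069 in Fvmate51-1 and 2774 to 2802 in Fvmate51-2. Of its 59 tested genes, 5 were called higher and 31 lower in the pooled comparison. These were 8.5% and 52.5%, beside 16.8% and 18.1% of all genes. For 21 named vascular genes the sums were 107 to 111, 163 to 176 and 115 to 117 FPKM, above WT in both mutants and highest in Fvmate51-1. Of 19 tested genes in the longer vascular list of 49 rows, 7 were called higher and 3 lower in the pooled comparison. These were 36.8% and 15.8%, beside 16.8% and 18.1% of all genes. In Fvmate51-2 alone 6 were higher and 5 lower, or 31.6% and 26.3%, beside 15.3% and 15.1% of all genes. The xylem cellulose synthases were low: of 5 rows, 1 averaged 1 FPKM or more, 2 were listed at 0 in every library, and their sums in the 3 groups were 14.5 to 19.4, 38.9 to 43.2 and 28.1 to 28.4 FPKM. For 50 genes of green tissue the sums were 51.2 to 56.9, 51.8 to 63.1 and 49.4 to 68.8 FPKM. Of 17 tested green tissue genes by name or domain, 3 were called higher and 2 lower in the pooled comparison. These were 17.6% and 11.8%, beside 16.8% and 18.1% of all genes. By their sums, receptacle markers and the longer achene list were thus lower and vascular markers higher in both mutants. For the named vascular genes the rise in Fvmate51-2 was small. These sums rest largely on a few genes. FvH4_6g50700 in the receptacle list averaged 6849 FPKM in WT, 5306 in Fvmate51-1 and 5271 in Fvmate51-2. In the longer achene list FvH4_6g20170, matched to NDR1/HIN1-like protein 1 and not named for seeds, averaged 1343, 917 and 1221 FPKM. The sums of that list averaged 3550, 2789 and 2787 FPKM, so in Fvmate51-2 most of the fall lay in other genes. In the longer vascular list FvH4_6g01013, matched to an F-box protein, averaged 100, 176 and 178 FPKM. The sums of that list averaged 286, 415 and 367 FPKM, so most of its rise in Fvmate51-2 lay in this 1 gene. Over the tested receptacle genes the median log2 difference from WT was -0.36 in Fvmate51-1 and -0.01 in Fvmate51-2. The part of tissue makeup in the levels of either metallothionein was not tested.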

How the data were processed

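Poly(A) RNA from fruits was sequenced in 9 libraries, 3 each of WT, Fvmate51-1 and Fvmate51-2, grouped by the labels' genotype. The authors deposited 1 table of FPKM per gene and library, scaled to gene length and library size. How library size was set, the genome build, the annotation and the strand setting are not given in the sources used here. The submitters' processing notes list featureCounts 2.0.6, StringTie 2.2.3, HISAT2 2.2.1 and fastp, with no roles. Without a stated strand setting, reads of overlapping genes cannot be told apart.

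The scale was log2(FPKM + 1). A gene was tested if 3 or more of the 9 libraries gave it 1 FPKM or more, which left 15890 genes. The fold changes of means use FPKM itself, and log2 differences understate the change of low genes. limma 3.58.1 in R 4.3.3 (limma-trend, 3 group means over all libraries, no covariate) gave differences, SEs and two-sided p-values with Benjamini-Hochberg adjustment over all genes tested, called under 0.05. The fit was also run on simulated data with changes in few genes, the same relative spread for all genes and no library that stood apart. That run therefore does not measure error rates for data with the spread seen here. Fragment numbers were recovered from the deposited FPKM and gene lengths (100% of values within 0.02 of a whole number), and binomial intervals are exact (Clopper-Pearson).

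The gene, the lists and the tests were chosen with earlier results of these data known. Named genes were both metallothioneins, the 10 genes highest in WT, up to 3 genes per list with the lowest adjusted p for both mutants, 2 neighbours on each side, and the 6 closest profiles. Other genes named (FvH4_5g06470, FvH4_2g39441, FvH4_2g02651, FvH4_7g27352, FvH4_3g23161, FvH4_7g05820, FvH4_3g19981, FvH4_1g28280, FvH4_4g00450, FvH4_6g42990, FvH4_6g20170 and FvH4_6g01013) were chosen after their values were seen. Lists were word patterns matched to descriptions and domain names. By name or domain, 49 vascular rows summed to 272 to 299, 407 to 421 and 361 to 373 FPKM in WT, Fvmate51-1 and Fvmate51-2. In these sums the gene FvH4_6g01013 averaged 100, 176 and 178 FPKM. No sequence of the gene was used here.

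Alternatives were a pseudocount of 0.1, no filter, a minimum mean of 5 FPKM, scaling by median of ratios, scaling to 1 common FPKM sum (TPM) with or without the metallothioneins, the replicate number as a block, only the groups compared, limma-voom on recovered fragments, limma without trend, and leaving out each library. Leaving out the 2 libraries that stood apart was chosen after seeing the data.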

Additional observations from a re-analysis of the deposited data

Results flagged for a closer look

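Ferritin (FvH4_6g10770) differed between the mutants in the direction of its change from WT. Its level was 12.7 ± 0.77 FPKM in WT, 3.78 ± 0.77 in Fvmate51-1 and 199 ± 8.29 in Fvmate51-2 (SD, n = 3 libraries each). The test of the difference itself, Fvmate51-2 minus Fvmate51-1, gave 5.40 on the scale of log2(FPKM + 1) with a limma adjusted p of 3.92e-10, and every Fvmate51-2 library was above every other library. Both metallothioneins had higher means than WT in both mutants.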

How the results depend on the processing

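The differences of FvH4_3g20030 from WT kept their direction under all 20 alternatives, between 0.50 and 0.78 for Fvmate51-1, 0.96 and 1.13 for Fvmate51-2 and 0.28 and 0.52 between the mutants (log2). Calls for FvH4_6g13710 depended on the settings, in the same direction throughout. With no filter on low values the differences of both mutants and of Fvmate51-2 were 0.39 and 0.55 but not called (adjusted p = 0.106 and 0.0640). Fvmate51-1 was called after TPM rescaling (0.35) and after the same without the metallothioneins (0.36). Without the 2 libraries that stood apart, Fvmate51-1 was called at 0.32 and the difference between the mutants at 0.39. Leaving out 1 library gave 0.31 to 0.55 for both mutants, 0.16 to 0.39 for Fvmate51-1, 0.47 to 0.70 for Fvmate51-2 and 0.26 to 0.41 between them. With a mean of at least 5 FPKM, fewer genes were tested and 40 genes of the metal lists were called in the pooled comparison in place of 63, 45 in place of 72 in Fvmate51-1 and 37 in place of 62 between the mutants. The causes of the other changes were not tested. Same-numbered libraries had residual correlations of -0.26 to 0.16, 1 of 9 pairs was above 0.1, and 1 of 9 libraries correlated best with its own number, so the numbers were not taken to pair samples. With the replicate block the difference of FvH4_6g13710 for both mutants was 0.39 with an adjusted p of 0.0692, and 4672 of all genes were called in place of 5545. The 1 pooled call of the glutathione list was then lost. Of 2996 values of other named genes under these alternatives, 92 lost a call, 60 gained one and 0 reversed. With 3 libraries per group, small differences could be missed, and genes near 1 FPKM rest on few fragments.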

Other observations

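In FvH4_3g20030, FvH4_6g13710 and the superoxide dismutase FvH4_6g04231, WT replicate 3 and Fvmate51-1 replicate 2 were the highest of their groups and Fvmate51-2 replicate 3 was the lowest. The lowest WT library was replicate 1 for both metallothioneins and replicate 2 for the superoxide dismutase. The deviation of FvH4_3g20030 from its group mean in those libraries was 0.21, 0.30 and -0.12 on the log2 scale. It was 0.31, 0.15 and -0.21 for FvH4_6g13710 and 0.15, 0.03 and -0.17 for FvH4_6g04231. The same 3 extremes were found in 2023 of 15890 tested genes (12.7%), in 14 of the 50 genes with a mean of at least 1000 FPKM and in 20 of the 134 tested metal genes. This pattern was noticed after the values were seen and carries no test, and what these libraries share was not tested.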
